A study of Homo sapiens with 8 samples.

Results

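The p53 transcription factor acts through a set of target genes, and the H3K27ac landscape around 9 of them was described in human colonic epithelial cells (HCECs) with and without CREBBP. The 9 genes were CDKN1A, MDM2, GDF15, BBC3, SESN1, SESN2, FAS, TP53INP1 and BTG2. They were chosen by name as direct p53 targets, and every H3K27ac peak that overlapped the gene body of one of them (GENCODE release 44, hg38) or the 30 kb on either side was counted. After overlapping or adjoining peaks were joined across libraries, 124 of the 143733 intervals of the whole data set lay in these 9 windows, and 41 of the 34864 intervals that could be tested.

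p53 binds a response element made of a pair of similar half-sites and, when DNA damage or another stress stabilises it, recruits the acetyltransferases CREBBP (also called CBP) and EP300 to its target genes. These paralogous enzymes acetylate histones, among them H3 at lysine 27, a mark of active promoters and enhancers, as well as p53 itself. The targets carry out distinct parts of the response: CDKN1A and BTG2 slow the cell cycle, MDM2 and TP53INP1 feed back on p53, BBC3 and FAS promote cell death, SESN1 and SESN2 restrain growth signalling under stress, and GDF15 encodes a secreted stress cytokine.

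H3K27ac was profiled by ChIP-seq in 3 WT and 3 CREBBP-KO (labelled CBP KO) libraries of HCEC-1CT, a human colonic epithelial line immortalised with CDK4 and hTERT. Both groups descend from a line that carries doxycycline-inducible Cas9, and the knockout was made with a synthetic guide RNA against CREBBP. EP300 was not targeted, and neither group is labelled with any treatment that would activate p53. The methods describe the CREBBP-KO cells as monoclonal for ChIP-seq, and in another place as populations pooled from several clones, with pooled parental subclones as the match, so that genotype and clone cannot be told apart. One input library per genotype has no peak list and was not used here.

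The lists held 86163 to 93567 peaks in WT and 99008 to 111697 in CREBBP-KO. They hold no read counts, so the depth behind each list cannot be read from it. The value of an interval in a library was its highest fold enrichment, a linear ratio over the background of the same library, and its percentile was the rank of that fold within the peak list of the library. The CREBBP-KO lists were longer, and percentiles tended to be higher there. The median difference was 2.07 percentile points over all tested intervals, 3.25 over promoter intervals and 1.17 over distal ones. The part of list length in this was not tested. Percentiles are therefore given as a description, and calls come from limma, fitted to all 34864 intervals on normal scores of the rank among tested intervals. The resulting shift, CREBBP-KO minus WT, is in normal-score units. Its median was 0.02 over all tested intervals, 0.20 over promoter intervals and -0.10 over distal ones. A call is a Benjamini-Hochberg adjusted p under 0.05.

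Several markers went against the label of the cells. No peak lay at the promoters of the epithelial genes CDX1, CDX2, VIL1, CDH1 and KRT19 in any library, and of 8 epithelial markers only EPCAM and KRT8 had a peak in all 6, at percentiles from 0.175 to 73.5. The 3 fibroblast markers COL1A1, COL1A2 and PDGFRB had promoter peaks in all 6 libraries, at percentiles from 93.3 to 98.9 in WT and from 95.8 to 99.9 in CREBBP-KO. For each of these 3 genes, and for EPCAM and KRT8, all CREBBP-KO percentiles were above all WT percentiles (exact permutation test, p = 0.1 each). The same was so at 44.8% of all tested promoter intervals. The mean fold of the 3 fibroblast markers was 21.2, 20.9 and 15.3 in WT and 35.6, 30.6 and 20.7 in CREBBP-KO. The mean percentile was 5.27 against 33.8 at EPCAM and 47.96 against 67.9 at KRT8. KRT18 did not rise in this way: its promoter peak stood at percentiles 53.3, 57.7 and 32.9 in WT. In CREBBP-KO it was present in 2 libraries, at 54.2 and 34.6. The starts taken for KRT8 reach the KRT18 promoter, and the WT values of the 2 genes are the same. No leukocyte marker had one, and of the 2 endothelial markers PECAM1 had one in the CREBBP-KO libraries only, at percentiles up to 39.6. The part of these differences in the results below was not tested. A peak list cannot check the loss of the CREBBP protein.

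The reference sequence of the intervals was searched for p53 response elements, since these are what makes the genes direct targets. The search took 2 adjacent copies of the 10-base p53 half-site, with no spacer, kept the C and the G that every half-site shares and allowed up to 2 mismatches elsewhere. The element is its own reverse complement, so that one scan covers both strands. Such a match lay within 1000-base windows centred on the summits of 4 of the 41 member intervals (9.76%), against 455 of 34847 tested intervals on placed chromosomes (1.31%). With up to 3 mismatches the shares were 22.0% and 4.88%. Over their whole length, 5 tested intervals of 4 members held a match with up to 2 mismatches. Of the 10 called member intervals, 1 held a match with up to 2 mismatches and 3 held a match with up to 3. Shown are the matches with up to 2 mismatches in tested intervals, and those with 3 in the called promoters of BBC3 and SESN1. Matches with 3 mismatches in intervals that were not called, among them promoter intervals of BTG2, CDKN1A and GDF15, are not shown. The sequences are in hg38, 5′ to 3′ on the strand of the gene. Matched bases are in capitals, with 5 flanking bases on each side in lower case. They were read from the reference genome, a match is a description of letters, and p53 binding was not measured.
CDKN1A, promoter interval, 2 mismatches (chr6:36676444-36676473, plus strand): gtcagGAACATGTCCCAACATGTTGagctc
CDKN1A, distal interval, 1 mismatch (chr6:36667253-36667282, plus strand): acaaaAGACAAGCCCGGGCAAGGCCagcgg
MDM2, promoter interval, 2 mismatches (chr12:68808918-68808947, plus strand): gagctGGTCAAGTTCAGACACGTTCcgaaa
FAS, promoter interval, 2 mismatches (chr10:88991304-88991333, plus strand): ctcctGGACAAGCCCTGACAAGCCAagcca
GDF15, upstream promoter interval, 1 mismatch (chr19:18373942-18373971, plus strand): gcctcAGACCTGCCCGGACATGTCCaagtc
BBC3, promoter interval, 3 mismatches (chr19:47231315-47231344, minus strand): cgcgcCTGCAAGTCCTGACTTGTCCgcggc
SESN1, internal promoter interval, 3 mismatches (chr6:109009013-109009042, minus strand): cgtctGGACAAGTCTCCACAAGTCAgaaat

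These matches sit at different places relative to the genes and the peaks. Counted from the canonical transcript start in the direction of transcription, the middle of the match lay at -2255 and -11446 bp in CDKN1A, at 756 bp in MDM2 and at 521 bp in FAS, the last 2 within the transcribed region. In GDF15 the match lay 28 to 138 bp from the peak summits of the 6 libraries, closer than any other match in a tested member interval. The match in the CDKN1A promoter interval lay 2470 to 3437 bp from them. The matches in BBC3 and in SESN1 needed 3 mismatches and lay at -131 and -40 bp from the nearest start. By that measure the promoter matches in CDKN1A, MDM2, FAS and GDF15 lay at -1, -69, -109 and -774 bp.

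Across the 9 windows the rank of most acetylated intervals was not called. Of 41 tested intervals, 4 were called higher and 6 lower in CREBBP-KO, together 24.4%, against 37.3% of all tested intervals (18.6% higher and 18.7% lower). The median absolute shift was 0.24 for the member intervals and 0.43 for all tested ones. By percentiles, 11 member intervals had all 3 CREBBP-KO libraries above all 3 WT libraries and 4 had them below, against 34.2% and 15.2% of all tested intervals. Of the 10 calls, 6 fell outside the promoters of the members themselves, and 8 of the 9 genes had at least 1. CDKN1A had none. The filter, a fold of at least 5 in all 3 libraries of a genotype, was met by 34 of the 41 in both genotypes, and 3 of these were called higher and 6 lower. The other 7 met it in 1 genotype only and could enter the test through the higher group, and 1 of them, downstream of BTG2, was called.

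**Figure D1:**
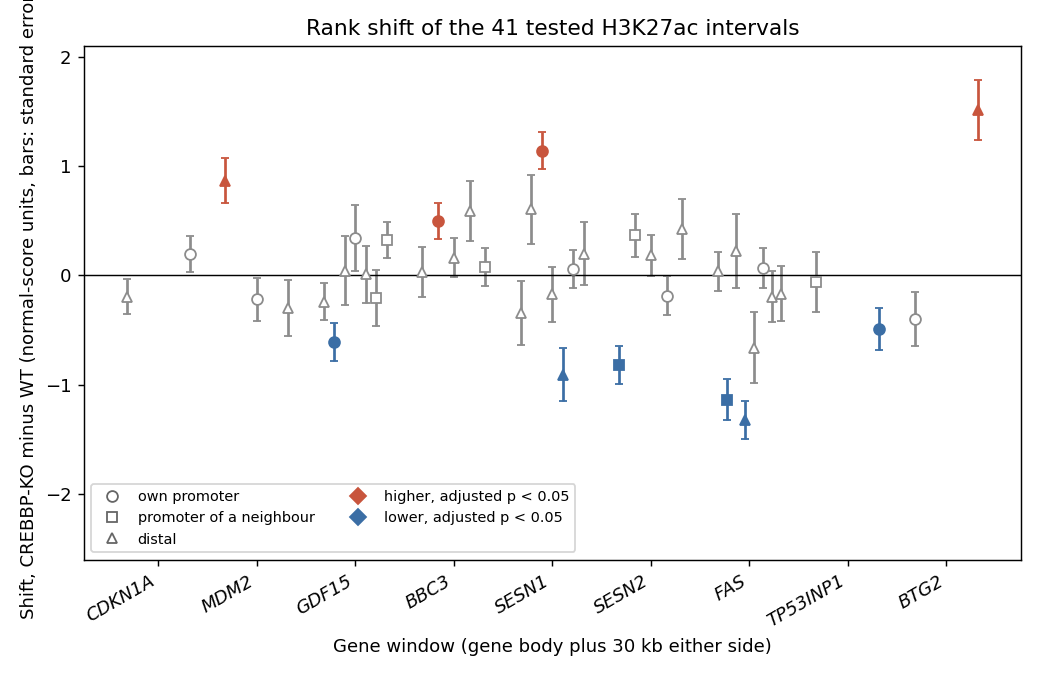
Shift of each tested interval, CREBBP-KO minus WT in normal-score units with its standard error from limma, grouped by gene window and in genome order within a window (3 libraries per genotype). The 4 red symbols are the intervals called higher, from 0.50 at BBC3 to 1.51 downstream of BTG2, and the 6 blue symbols those called lower, down to -1.32 in the FAS window.

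At the promoters, 2 of the 11 member intervals rose in rank and 2 fell, against 25.9% and 8.98% of the 11570 promoter intervals tested, together 34.9%. The genes SESN1 and GDF15, had 2 separate promoter intervals each, and in each gene 1 of them was called. Taking for each gene the highest peak over all its starts, 2 of 9 genes had non-overlapping percentiles with CREBBP-KO above, BBC3 and SESN1, and 0 had them below, against 44.8% and 8.34% of promoter intervals. For 3 libraries against 3 the exact permutation test cannot give a p below 0.1.

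**Figure D2:**
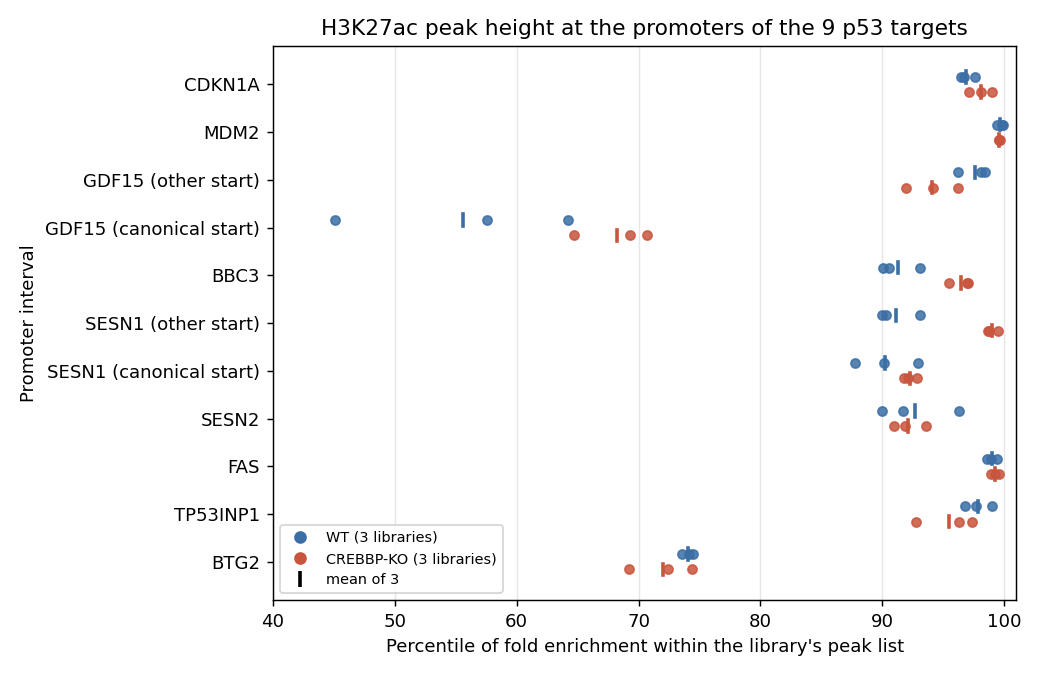
Percentile of the highest fold enrichment at the 11 promoter intervals of the 9 genes in each library (points) with the mean of 3 (bars). The 3 CREBBP-KO points stand right of the 3 WT points at BBC3, at the other start of SESN1 and at the canonical start of GDF15, of which the first 2 were called higher by limma.

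Of the cell-cycle genes, CDKN1A (ENSG00000124762.14, chr6:36676460-36687337, plus strand) encodes the cyclin-dependent kinase inhibitor p21. One broad interval, chr6:36674891-36687299, covered its promoter and the gene body. Its fold was 19.7, 17.3 and 17.9 in WT and 25.1, 22.9 and 21.3 in CREBBP-KO. All 3 CREBBP-KO folds were above all 3 WT folds. How often folds separate in this way over all tested intervals was not computed, so such statements here and below have no background. The percentiles were 97.6, 96.7 and 96.4 in WT and 99.0, 98.1 and 97.1 in CREBBP-KO. These overlapped, and the shift of 0.20 (SE 0.17) did not pass the test (limma, adjusted p = 0.36). The distal interval 8.78 kb upstream, chr6:36664841-36669932, holds the match with 1 mismatch. It was the highest distal interval of the window, with percentiles from 94.2 to 96.2 in WT and from 93.5 to 95.9 in CREBBP-KO, and its shift was -0.19 (SE 0.16, adjusted p = 0.358).

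BTG2 (ENSG00000159388.6, chr1:203305491-203309602, plus strand), an antiproliferative protein that recruits mRNA deadenylases, differed between its promoter and an interval downstream. At the promoter, chr1:203304832-203307505, the fold was 7.34, 7.23 and 7.66 in WT and 6.60, 6.001 and 6.82 in CREBBP-KO. The percentiles were 74.1, 73.6 and 74.5 against 74.4, 69.3 and 72.4, which is low in the list for a member's promoter. The folds were all lower in CREBBP-KO, but the percentiles overlapped and the shift of -0.40 (SE 0.25) was not called (limma, adjusted p = 0.217). The interval chr1:203327018-203328260, 21.5 kb from the start in intergenic sequence, had a fold of 5.14, 5.11 and 4.47 in WT and 7.87, 13.0 and 10.5 in CREBBP-KO. Its percentiles were 60.1, 59.3 and 50.2 in WT and 79.8, 89.8 and 84.0 in CREBBP-KO. The genotypes did not overlap, and the mean moved from 56.5 ± 5.47 to 84.5 ± 5.02 (SD, n = 3 each). Its shift was 1.51 (SE 0.27, limma adjusted p = 0.000246). The interval met the filter on fold in CREBBP-KO only, the genotype where it was higher. With no filter on fold its shift was 1.02 and it was still called (adjusted p = 0.00062).

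Of the genes that feed back on p53, MDM2 (ENSG00000135679.27, chr12:68808177-68845544, plus strand) encodes the ubiquitin ligase that degrades p53. Its promoter, chr12:68806908-68813590, was among the highest peaks of every list. The fold was 26.2, 28.8 and 30.7 in WT and 29.5, 31.9 and 31.4 in CREBBP-KO, and the percentiles lay between 99.4 and 99.9 in all 6 libraries. The genotypes overlapped (shift -0.22, SE 0.20, limma adjusted p = 0.393). An interval 19.2 kb upstream, chr12:68785025-68788965, lies in SLC35E3 and was also the highest distal interval of the window. Its fold was 7.30, 6.92 and 7.43 in WT and 11.3, 13.7 and 11.8 in CREBBP-KO. The percentiles were 73.8, 72.1 and 73.4 in WT and 88.4, 90.9 and 86.8 in CREBBP-KO. It rose without overlap between genotypes, with a shift of 0.87 (SE 0.21, limma adjusted p = 0.0025). The call was lost when intervals were ranked by the significance of the peak instead of its fold, where the shift was 0.22. The third tested interval, within the gene, was not called (-0.30, adjusted p = 0.367).

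TP53INP1 (ENSG00000164938.14, chr8:94925972-94949378, minus strand) encodes a stress-induced protein that promotes p53 activity and autophagy, and it shares its promoter interval, chr8:94947313-94951496, with NDUFAF6. The fold there was 20.0, 17.4 and 23.4 in WT and 14.2, 21.2 and 19.9 in CREBBP-KO. The percentiles were 97.7, 96.8 and 99.0 in WT and 92.8, 97.4 and 96.3 in CREBBP-KO. Replicate 1 of CREBBP-KO was the lowest of the 6, and the genotypes overlapped. The shift of -0.49 (SE 0.19) passed the threshold narrowly (limma, adjusted p = 0.0464). It did not pass under 8 of 15 alternatives, including those without replicate 1 or 3 of either genotype, where the adjusted p reached 0.276 and the shift lay between -0.54 and -0.29. The other tested interval of the window, at the CCNE2 and NDUFAF6 starts, was not called (-0.06, adjusted p = 0.876).

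Of the death genes, BBC3 (ENSG00000105327.18, chr19:47220822-47232766, minus strand) encodes PUMA, which binds and inhibits anti-apoptotic BCL2 proteins. Its promoter interval, chr19:47225323-47233528, had a fold of 14.5, 12.3 and 13.1 in WT and 17.0, 20.4 and 21.0 in CREBBP-KO. The percentiles were 93.1, 90.1 and 90.6 in WT and 95.5, 97.0 and 97.0 in CREBBP-KO. All CREBBP-KO libraries were above all WT libraries, with means of 91.3 ± 1.61 and 96.5 ± 0.851 (SD, n = 3 each, exact permutation test, p = 0.1). The shift of 0.50 (SE 0.16) was called (limma, adjusted p = 0.0204). Without replicate 2 of WT, replicate 2 of CREBBP-KO or replicate 3 of CREBBP-KO it was no longer called, with shifts of 0.43, 0.45 and 0.44 and an adjusted p of up to 0.0851. Nor was it called on ranking by the significance of the peak (0.23, adjusted p = 0.207) or without a trend in limma (adjusted p = 0.0632). None of the other 4 tested intervals of the window was called, and the highest distal one, chr19:47242901-47245447, had a shift of 0.16 (adjusted p = 0.496).

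FAS (ENSG00000026103.25, chr10:88953813-89029605, plus strand) encodes a death receptor at the cell surface. Its window showed a high promoter beside 2 tested intervals that fell. The promoter interval, chr10:88987327-88994755, is also a promoter interval of ACTA2. Its fold was 22.4, 24.7 and 22.99 in WT and 26.6, 26.1 and 31.5 in CREBBP-KO. The percentiles ran from 98.6 to 99.4 in WT and from 98.9 to 99.6 in CREBBP-KO. The folds were all higher in CREBBP-KO, but the percentiles overlapped, and the shift was 0.07 (SE 0.18, limma adjusted p = 0.795). The interval chr10:88971928-88977360, 13.4 kb upstream of that promoter, overlaps the annotated bodies of FAS, ACTA2 and STAMBPL1. Its fold was 18.6, 20.9 and 16.9 in WT and 10.7, 9.72 and 10.7 in CREBBP-KO. The percentiles were 97.0, 98.6 and 95.6 in WT and 87.1, 83.3 and 84.6 in CREBBP-KO. Every CREBBP-KO library was below every WT library. Its shift of -1.32 (SE 0.17) was the lowest of the 41 (limma, adjusted p = 1.23e-05).

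The second FAS-window interval that fell, chr10:88948690-88954178, is at another promoter of ACTA2, the gene of smooth muscle actin, 36.6 kb from the canonical FAS start. Its fold was 23.4, 21.0 and 25.7 in WT and 14.4, 19.2 and 12.7 in CREBBP-KO. The percentiles were 98.9, 98.6 and 99.4 in WT and 93.0, 96.3 and 88.4 in CREBBP-KO. The genotypes did not overlap (shift -1.14, SE 0.19, limma adjusted p = 0.000112). Next to it, the interval chr10:88946399-88947786 was the only one of the 9 windows with a peak in all 3 WT and no CREBBP-KO libraries, and it was not tested. Its fold there was 4.02, 3.45 and 3.72, at percentiles from 32.8 to 45.2 of the WT lists. Another interval that was not tested, chr10:88995072-88997490 within FAS, had a peak in all 6 libraries and was higher in CREBBP-KO. Its fold was 3.55, 2.14 and 3.13 in WT and 5.16, 5.62 and 4.59 in CREBBP-KO. The percentiles were 35.2, 0.448 and 20.4 in WT and 65.0, 66.7 and 56.4 in CREBBP-KO. This was not particular to FAS. Untested intervals of the BTG2, BBC3 and SESN1 windows also had all CREBBP-KO percentiles above those of WT. Their means were 35.3 against 63.8, 49.2 against 67.2 and 7.80 against 26.6. In the remaining untested intervals with a peak in all 6 libraries the genotypes overlapped. The other 5 tested distal intervals of the FAS window were not called, with shifts from -0.66 to 0.22. The promoters of the fibroblast markers COL1A1, COL1A2 and PDGFRB were higher in all CREBBP-KO libraries than in all WT libraries, as given above. By percentiles this was so at 44.8% of all tested promoter intervals. The part of such markers in the results of the FAS window was not tested.

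**Figure D3:**
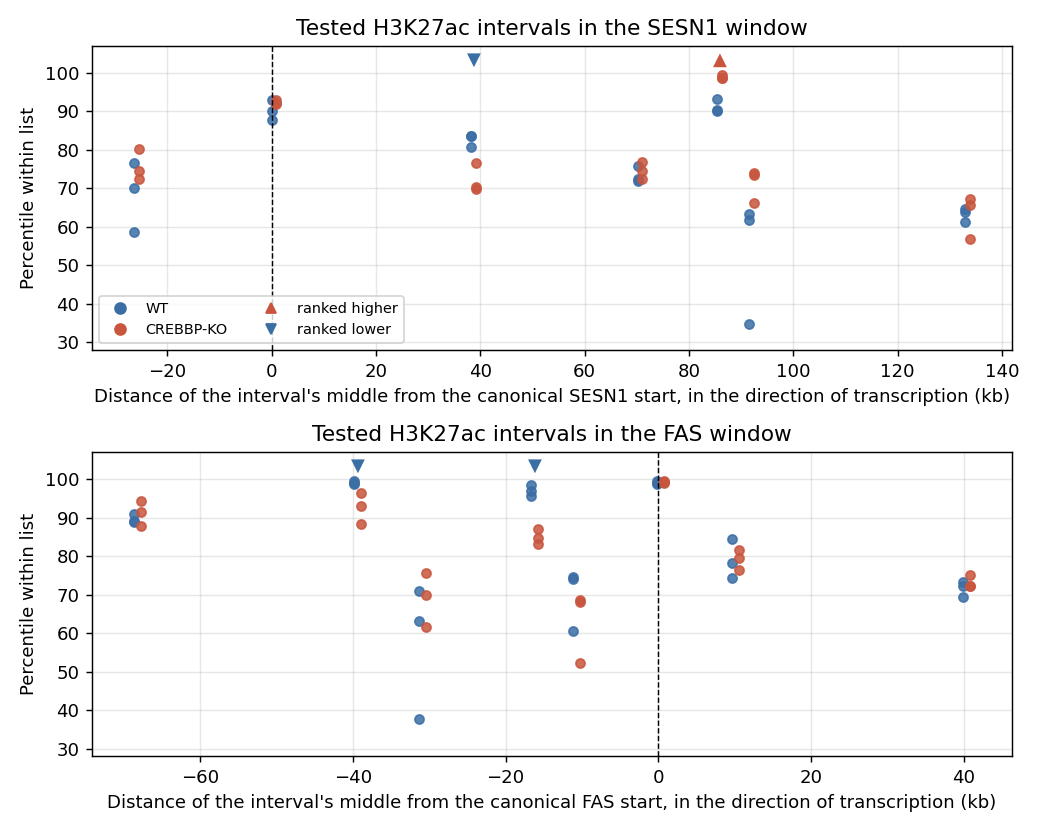
Percentile of each tested interval in the SESN1 and FAS windows against the distance of its middle from the canonical start in kb (positive in the direction of transcription), with 1 point per library and the genotypes set slightly apart sideways. Triangles mark the called intervals: in the SESN1 window 1 higher, at the internal promoter, and 1 lower, and in the FAS window 2 lower, both upstream of the canonical start.

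Of the stress regulators, SESN1 (ENSG00000080546.14, chr6:108984309-109094846, minus strand) encodes a sestrin, an inhibitor of mTORC1 signalling, and its 2 promoters differed. The promoter of the canonical transcript, chr6:109091828-109096990, is shared with CEP57L1. Its fold was 12.7, 11.2 and 14.6 in WT and 13.5, 14.7 and 15.9 in CREBBP-KO. The percentiles were 90.1, 87.7 and 92.9 against 91.8, 92.1 and 92.8. The genotypes overlapped (shift 0.06, SE 0.17, limma adjusted p = 0.821). The internal promoter, chr6:109007451-109010505, lies 84.3 kb further into the gene and serves transcripts that start at 109008988 and 109009555. Its fold was 12.7, 12.3 and 14.7 in WT and 23.4, 25.6 and 30.4 in CREBBP-KO. The percentiles were 90.3, 90.0 and 93.1 in WT and 98.6, 98.8 and 99.5 in CREBBP-KO. Both promoters stood at similar folds in WT, and the internal one was the higher in each CREBBP-KO library. It rose by a shift of 1.14 (SE 0.17, limma adjusted p = 4.64e-05). The difference between the 2 shifts was not tested.

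Within SESN1, an intronic interval between the promoters, chr6:109054986-109057251, fell. Its fold was 9.90, 9.74 and 9.21 in WT and 5.81, 6.17 and 7.88 in CREBBP-KO. The percentiles were 83.6, 83.5 and 80.6 in WT and 69.9, 70.3 and 76.7 in CREBBP-KO, without overlap. The shift was -0.91 (SE 0.24, limma adjusted p = 0.00554), and ranking by the significance of the peak gave -0.47, which was not called. It was also the highest distal interval of the window. The other 4 distal intervals had shifts from -0.34 to 0.60 and none was called.

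SESN2 (ENSG00000130766.5, chr1:28259518-28282491, plus strand) encodes a second sestrin, a leucine sensor upstream of mTORC1. At its promoter, chr1:28258019-28263660, the fold was 12.6, 16.8 and 13.8 in WT and 15.0, 14.4 and 14.4 in CREBBP-KO. The percentiles ran from 90.0 to 96.3 in WT and from 91.0 to 93.6 in CREBBP-KO. The CREBBP-KO values fell inside the WT range, and the shift was -0.19 (SE 0.18, limma adjusted p = 0.43). The call in the window was at the promoter of a neighbour, DNAJC8, chr1:28231157-28233453, whose product takes part in splicing. Its fold was 14.7, 15.9 and 18.9 in WT and 10.7, 12.3 and 12.5 in CREBBP-KO. The percentiles were 93.3, 95.5 and 97.2 in WT and 87.2, 88.7 and 88.0 in CREBBP-KO. It fell without overlap (shift -0.82, SE 0.17, limma adjusted p = 0.00104), and the call was lost on ranking by significance (-0.28). The highest distal interval of the window, chr1:28246094-28250597, had a shift of 0.19 (adjusted p = 0.452). The other 2 tested intervals, at the ATP5IF1 promoter and downstream of SESN2, had shifts of 0.37 and 0.42 and were not called, although their percentiles in CREBBP-KO were all above those in WT.

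GDF15 (ENSG00000130513.7, chr19:18374731-18389176, plus strand), the secreted stress cytokine, also had 2 promoter intervals. The one at its most upstream start, chr19:18372162-18376200, holds the match with 1 mismatch. Its fold was 20.8, 20.5 and 17.6 in WT and 18.0, 14.5 and 17.2 in CREBBP-KO. The percentiles were 98.1, 98.4 and 96.2 in WT and 96.2, 91.9 and 94.2 in CREBBP-KO. It fell by 0.61 (SE 0.17, limma adjusted p = 0.00831), although the percentiles of the genotypes met at 96.2. Without replicate 2 of CREBBP-KO, the lowest library, the shift was -0.48 and was not called (adjusted p = 0.062). At the canonical start, chr19:18385357-18387487, the peak was far lower in all libraries. The fold was 5.66, 4.96 and 4.13 in WT and 5.70, 5.36 and 6.49 in CREBBP-KO. The percentiles were 64.2, 57.6 and 45.1 in WT and 69.3, 64.7 and 70.7 in CREBBP-KO. They did not overlap, but the shift of 0.34 (SE 0.30) was not called (limma, adjusted p = 0.378).

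The highest distal interval of all 9 windows was also near GDF15, at chr19:18362836-18366481 in the neighbouring gene PGPEP1. Its fold ran from 22.6 to 25.9 in WT and from 24.9 to 26.0 in CREBBP-KO, and its shift was -0.24 (SE 0.17, limma adjusted p = 0.28). The remaining 4 tested intervals of the GDF15 window, 2 of them at promoters of SSBP4, had shifts from -0.21 to 0.32 and were not called. In all, 19 of the 23 distal intervals of the 9 windows were not called, with shifts from -0.66 to 0.60. The 2 called higher and 2 called lower compare with 14.9% and 23.6% of all distal intervals, together 38.5%. Of the 23, 6 had CREBBP-KO percentiles above those of WT without overlap and 2 had them below, against 28.9% and 18.7% of all distal intervals.

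The 83 intervals of the windows that were not tested were lower in the lists. Their percentiles had a median of 25.9, against 84.2 for the tested ones. A peak was present in 1 library for 41 of them, in 2 to 5 libraries for 32, and in all 6, but below the fold of 5 that the filter requires in all 3 libraries of a genotype, for 10. The reverse of the FAS case, a peak in every CREBBP-KO list and in none from WT, occurred 0 times. The deciding fold was 5.12 and 5.25 for the 2 members just inside the filter, both in the FAS window, and 4.77 and 4.68 for those just outside, in the BBC3 and BTG2 windows.

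A wider list of 44 p53 pathway genes, which shares no interval with the 9 windows, had 161 tested intervals. Of these, 38 were called higher and 25 lower, together 39.1%, against 37.3% of all tested intervals. All 44 genes had a tested promoter, in 47 intervals, of which 15 rose (against 25.9% of promoter intervals) and 7 fell (against 8.98%). Among the 7, SFN had a peak within 1 kb of its start in 2 CREBBP-KO libraries and 0 WT libraries. By role, 5 of 14 promoters of cell-cycle arrest and repair genes rose and 2 fell. Of 13 promoters of apoptosis genes 5 rose and 0 fell, of 13 of p53 regulators 3 rose and 4 fell, and of 7 of secreted and other effectors 2 rose and 1 fell.

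The promoters that rose most were GADD45A, PIDD1 and AEN. GADD45A, a stress sensor that inhibits cell-cycle progression, had a fold of 17.7, 19.9 and 16.1 in WT and 31.96, 38.2 and 35.8 in CREBBP-KO, without overlap (shift 1.23, SE 0.18, limma adjusted p = 4.13e-05). PIDD1, the scaffold of a caspase-activating complex, rose by 1.00 (SE 0.28, adjusted p = 0.00862), with percentiles from 53.6 to 66.8 in WT and from 72.8 to 83.6 in CREBBP-KO. It met the filter in CREBBP-KO only, and with no filter on fold its shift was 0.67 (adjusted p = 0.0185). AEN, a p53-induced nuclease, rose by 0.98 (SE 0.20, adjusted p = 0.000723). The promoters that fell most were ATF3, CHEK2 and RRM2B. ATF3, a stress-induced transcription factor, had a fold of 14.0, 14.7 and 15.0 in WT and 10.45, 8.68 and 11.025 in CREBBP-KO, without overlap (shift -0.86, SE 0.18, adjusted p = 0.000884). CHEK2, a DNA damage checkpoint kinase, fell by 0.78 (SE 0.17, adjusted p = 0.00134) at one of its 2 promoter intervals, while the other was not called (-0.28, adjusted p = 0.418). RRM2B, a ribonucleotide reductase subunit, fell by 0.68 (SE 0.17, adjusted p = 0.00329).

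**Figure D4:**
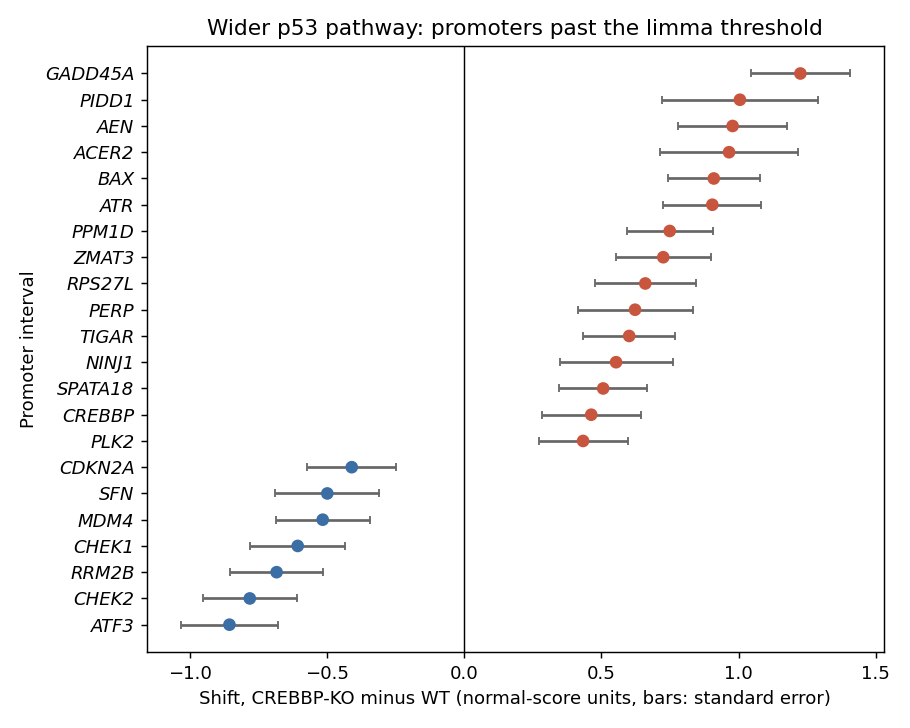
Shift of the 22 called promoter intervals of the wider p53 pathway list, CREBBP-KO minus WT in normal-score units, with the standard error from limma (3 libraries per genotype). The 15 red points rose, up to 1.23 at GADD45A, and the 7 blue points fell, down to -0.86 at ATF3.

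The coactivator genes themselves were in the list. The EP300 promoter, chr22:41090704-41095776, had a fold of 24.3, 24.8 and 24.7 in WT and 29.4, 29.0 and 29.3 in CREBBP-KO. Its percentiles overlapped, from 99.1 to 99.5 and from 99.4 to 99.6, and its shift was 0.05 (SE 0.17, limma adjusted p = 0.849). The CREBBP promoter, chr16:3875900-3881739, had a fold of 18.0, 21.0 and 16.1 in WT and 24.1, 25.9 and 28.9 in CREBBP-KO. It was called higher narrowly (shift 0.46, SE 0.18, adjusted p = 0.047). In the same window, chr16:3822425-3826196 rose by 1.495 (SE 0.35, adjusted p = 0.00217) and chr16:3696128-3698028 fell by 1.45 (SE 0.32, adjusted p = 0.00146). Each met the filter only in the genotype where it was higher, and with no filter on fold the shifts were 1.31 and -1.08 and both were called (adjusted p = 0.00586 and 0.00952).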

How the data were processed

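H3K27ac ChIP-seq of 3 WT and 3 CREBBP-KO libraries was used. Per the study's methods, the authors ran nf-core ChIP-seq on the reads, with MACS2 narrow peaks called for each library. The labels' processing notes name BWA and hg38. Reads were downsampled for a second run, and which run and which input gave the lists is not given in the sources used here. The deposited fold enrichment is a linear ratio over background, and the deposited significance is −log10 p and −log10 q. The deposited score was not used. Every peak ended within its chromosome of the hg38 reference.

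Overlapping or touching peaks were merged over the 6 lists. An interval was tested if it had a peak in all 6 libraries and a fold of at least 5 in all 3 of a genotype. Normal scores of ranks were fitted with limma 3.58.1 (R 4.3.3, lmFit, eBayes with a trend), unpaired, and p-values were adjusted over all tested intervals. Percentiles of one gene were compared with an exact permutation test, two-sided, over all assignments of the libraries to genotypes. Ranks and normal scores were computed with scipy 1.17.1. Nothing in the labels says that the 3 libraries of a genotype came from separate cultures, so p-values measure only the spread between these libraries, which may be technical. A promoter interval had a peak within 1 kb of a transcript start (GENCODE release 44). Python 3.11.15, numpy 2.4.6, pandas 2.3.3, matplotlib 3.10.9 and bedtools 2.31.1 were also used. The merge was checked against that of bedtools on the same peaks, and the fit and the motif search were tested on simulated data.

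Named were all 9 genes with their promoters, their called intervals and the highest distal interval of each window, and of the wider list CREBBP, EP300 and the 3 largest called promoter shifts in each direction. The members, the wider list, the markers and the rules were chosen with earlier results of these data known. Alternatives covered the fold filter, ranking, model, window size, list length, summit windows and each library left out.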

Additional observations from a re-analysis of the deposited data

How the results depend on the processing

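None of the 10 called member intervals named changed direction under the alternatives run, which were not applied one by one to intervals of the wider list. Of the 10 called member intervals, 4 kept their call under every alternative that gave a value. They were the SESN1 internal promoter, the interval downstream of BTG2, and the FAS-window intervals chr10:88971928-88977360 and chr10:88948690-88954178. None of the 7 promoter intervals that were not called became called. Ranking by −log10 p left 2 member intervals higher and 3 lower, and 18 higher intervals of the wider list. Of all tested intervals, 25.3% were called under this ranking, against 37.3% in the main fit. Windows of 10 kb gave 2 higher member intervals and 20 of the wider list, and windows of 100 kb gave 13 higher and 12 lower for the members and 67 and 39 for the wider list, by construction. A fold of at least 10, with fewer intervals tested, gave 25 higher and 15 lower of 89 in the wider list. The share called over all intervals at this fold was 43.9%. With one library left out, the members had 3 to 4 higher and 5 to 7 lower intervals, and the wider list 27 to 40 higher and 15 to 22 lower, with the 15 without replicate 3 of CREBBP-KO. Over all intervals the share called then ran from 28.7%, also without that replicate, to 36.1%. The number of genes whose promoter percentiles were all lower in CREBBP-KO was 2 with lists cut to the same length and 0 to 2 with one library left out, and those all higher 2 to 3. For the other changes the cause was not tested.

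Replicate numbers did not clearly pair the libraries. The deviations of the scores from the mean of their genotype correlated at 0.01, 0.01 and 0.03 between same-numbered libraries. For replicate 1 of WT the highest value was with replicate 2 of CREBBP-KO, and for replicates 2 and 3 of WT with the same number. With a replicate block, the members had 4 higher and 6 lower intervals, and all intervals 6514 and 6566. The block does not change the percentiles. Between same-numbered libraries the highest GDF15 promoter peak was lower in CREBBP-KO each time. Its percentiles were 98.1, 98.4 and 96.2 in WT against 96.2, 91.9 and 94.2, and over all libraries the genotypes overlapped.

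Without read counts in the lists, the precision of a single fold could not be computed. Broad intervals that cover a promoter and a gene body are represented by their highest peak.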

Other observations

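Beyond the genes named by rule, several promoters of the wider list were looked at after their values were seen. BAX, the effector of mitochondrial cell death that BBC3 acts upstream of, had promoter percentiles of 94.5, 97.0 and 96.3 in WT and 99.6, 99.3 and 99.6 in CREBBP-KO, and its shift was 0.91 (SE 0.17, limma adjusted p = 0.000324). Among inhibitors of p53, PPM1D, a phosphatase, rose by 0.75 (SE 0.16, adjusted p = 0.000955), with folds of 13.9, 13.4 and 14.4 in WT and 21.6, 25.0 and 22.6 in CREBBP-KO. One of the 2 promoter intervals of MDM4, a paralogue of MDM2, fell by 0.52 (SE 0.17, adjusted p = 0.022), with percentiles from 91.2 to 95.0 in WT and from 86.9 to 90.8 in CREBBP-KO, while its other one was not called. The checkpoint kinase gene CHEK1 fell by 0.61 (SE 0.17, adjusted p = 0.00884).

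An interval 22.6 kb upstream of the canonical SESN1 start held a p53 response element match with 1 mismatch, 8 bp from the peak summit. It had a peak in replicate 1 of CREBBP-KO only, with a fold of 3.93 at percentile 48.0, and was not tested.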
